A study of Mus musculus with 9 samples.

Results

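The microRNA cluster studied here comprises 3 hairpins, mmu-mir-183, mmu-mir-96 and mmu-mir-182, and its counts were read in B16F1 cells, a mouse melanoma line of C57BL/6 origin. The members were every row of the small RNA count table assigned to 1 of these hairpins, and they numbered 3 of 391 known hairpins and 47 of 4199 sequence tags. mmu-mir-183 held 34 of the tags, mmu-mir-182 held 9 and mmu-mir-96 held 4. The 6 rows that carry the mature names of the cluster had 0 counts in every library, so all values below come from the tags. Each tag bears a start number within its hairpin, and numbers under 35 were taken as the 5p arm and the others as the 3p arm. No member tag was also listed under another hairpin.

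There were 3 groups of 3 independent replicates, all in the same serum-supplemented medium. Control cells were not exposed, the L-Tyr cells were exposed to 5 mM L-tyrosine, the amino acid from which melanin is made, and the BrdU cells to 2.5 µg/mL of the thymidine analog bromodeoxyuridine (5-Brd-2′-dU). Both exposures lasted 72 h. All groups derive from 1 established line, and small RNA from whole cultures was sequenced, so fewer cells expressing a miRNA and less of it in each cell cannot be told apart.

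The 3 hairpins of this cluster are transcribed together and are best known from sensory cells of the retina and the inner ear. A mature miRNA pairs with messenger RNAs chiefly through its seed, bases 2 to 8 from its 5′ end, and base changes in the seed of miR-96 cause hearing loss in mice and people. In human melanoma miR-182 is known as a repressor of MITF, the transcription factor that governs pigment cell genes, and of FOXO3, while miR-183 has been studied as a repressor of ezrin, a protein that ties the cell membrane to actin.

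The mature sequences of the 5p arms are shown because their seeds are closely related, and those of the 3p arms because they also gave counts. Sequences are from RefSeq (GRCm38.p6), 5′ to 3′, with the seed in capitals.
miR-183-5p: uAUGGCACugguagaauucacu
miR-96-5p: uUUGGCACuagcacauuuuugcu
miR-182-5p: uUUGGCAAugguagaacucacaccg
miR-183-3p: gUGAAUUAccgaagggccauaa
miR-96-3p: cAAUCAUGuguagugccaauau
miR-182-3p: gUGGUUCUagacuugccaacu

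Counted from the 5′ end of the mature miRNA, miR-183-5p and miR-96-5p differ within the seed by A2U (the base of miR-183-5p first). miR-183-5p and miR-182-5p differ by A2U and C8A, and miR-182-5p and miR-96-5p by A8C. The longest run common to the 3 5p arms was the 5 bases UGGCA. Among the mouse miRNAs in the RefSeq table, miR-1271-5p was the only other one with any of these seeds, and it has that of miR-96-5p. The 3p arms have 3 different seeds.

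In the genome build NCBIM37 (mm9) the hairpins lie on the minus strand of chromosome 6, with Mir183 at 30119668 to 30119737, Mir96 at 30119446 to 30119551 and Mir182 at 30115918 to 30115992. Each RefSeq hairpin matched this build without a difference and occurred 1 time on the chromosome. Transcription meets Mir183 first, then Mir96 after 116 bp, and Mir182 after another 3453 bp, and the whole stretch spans 3820 bp. None of the hairpins lies in an exon or intron of another annotated gene, and the nearest protein-coding genes are Nrf1 on the plus strand, 12459 bp away, and Ube2h on the minus strand, 41551 bp away.

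**Figure D1:**
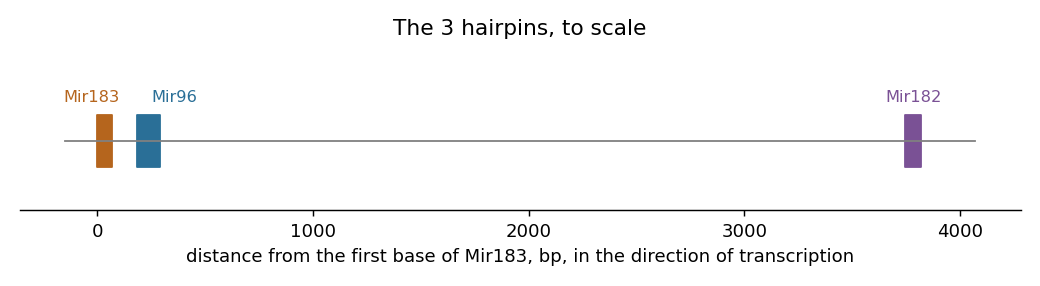
The 3 hairpins of the cluster drawn to scale along the direction of transcription, with the distance in bp from the first base of Mir183 on the horizontal axis. Mir96 follows Mir183 after 116 bp, whereas Mir182 lies 3453 bp beyond Mir96.

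The libraries held between 144452 and 424122 counts. The upper limit that a count of 0 allows, 3 counts, was worth 7.07 to 20.8 CPM (counts per 1000000 counts of the library). All levels in CPM below were further divided by a scaling factor of each library (TMM), from 0.719 in BrdU replicate 3 to 1.14 in BrdU replicate 2. miR-211-5p, a miRNA of the melanocyte lineage, ranged from 6601 to 24890 CPM and was present in all 9 libraries. miR-204-5p, of the other hairpin listed for this lineage, had 0 to 81.4 CPM, with 0 in BrdU replicate 1. BrdU replicate 3 stood apart: mir-143, a stromal hairpin, took 19.4% of its counts and at most 0.73% of those of any other library. Its summed stromal markers (6 hairpins) reached 274900 CPM, of which miR-143-3p alone held 269300 CPM. Those of erythroid cells reached 6705 CPM and those of leukocytes 1536 CPM. In control cells the stromal, erythroid and leukocyte sums were at most 3250, 17.5 and 42.6 CPM, and in L-Tyr cells 7528, 498 and 70.0 CPM. Among the erythroid markers, miR-486b-5p and miR-486a-5p also had 264 and 235 CPM in BrdU replicate 1. There miR-451a-5p had 17.2 CPM and both arms of mir-144 had 0. The miR-486 arms also had 81.4 to 109 CPM in L-Tyr replicates 1 and 2. The part of this composition in the values of the cluster was not tested, and the BrdU changes of the cluster's arms are also given without BrdU replicate 3.

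miR-183-5p carried nearly all of the cluster's counts. In control cells it had 6218, 6107 and 10247 CPM (7524 ± 2359, SD, n = 3), in L-Tyr cells 3548, 7054 and 6658 CPM (5754 ± 1920, n = 3), and in BrdU cells 10184, 5470 and 5516 CPM (7057 ± 2709, n = 3). The lowest library was L-Tyr replicate 1 and the highest control replicate 3, and each pair of groups overlapped. By its mean over the 9 libraries, miR-183-5p ranked 37 of 543 known arms with counts. Its share of all cluster counts lay between 87.0% (BrdU replicate 3; 95% Wilson interval 85.3 to 88.5%) and 95.1% (BrdU replicate 1; 93.99 to 95.96%). Such intervals cover counting error only, since sequenced PCR copies without molecular identifiers are not independent molecules.

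miR-183-3p, the opposite arm of the same hairpin, was far lower. It had 315, 184 and 438 CPM in control cells (312 ± 127, n = 3), 67.9, 350 and 0 CPM in L-Tyr cells (139 ± 186, n = 3), and 132, 280 and 274 CPM in BrdU cells (229 ± 83.6, n = 3). The library at 0 was L-Tyr replicate 3, in which up to 17.2 CPM (before TMM scaling) would not have been seen. The 3p arm made up 2.92 to 4.82% of the mir-183 counts in control cells, 0 to 4.73% in L-Tyr cells and 1.28 to 4.87% in BrdU cells. Exact permutation tests gave two-sided p = 0.3 for L-Tyr against control and 0.9 for BrdU against control, where 0.1 is the smallest p that 3 replicates against 3 can give.

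miR-182-5p had 306, 240 and 328 CPM in control cells (291 ± 46.1, n = 3), 190, 331 and 524 CPM in L-Tyr cells (348 ± 168, n = 3), and 115, 175 and 423 CPM in BrdU cells (238 ± 163, n = 3). The control values lay close together, and both exposed groups spread below and above them. In the order of the counts miR-183-5p stood above miR-182-5p in all 9 libraries, by a ratio of counts between 12.7 and 88.7 with a median of 21.3. miR-182-5p and miR-183-3p could not be ordered, as the former was higher in 4 of the 9 libraries. All these are levels of tags of 16 to 20 nt, which needed no correction for transcript length. Whether different sequences were captured equally well was not tested, so the order and ratios describe counts, not amounts in the cells.

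miR-96-5p rested on few counts. Control libraries held 2, 17 and 12 counts (33.3 ± 21.9 CPM, n = 3), L-Tyr libraries 0, 25 and 0 (32.4 ± 56.1 CPM, n = 3), and BrdU libraries 49, 18 and 2 (110 ± 149 CPM, n = 3). The 2 L-Tyr libraries without a count allow up to 20.8 and 17.2 CPM before TMM scaling. BrdU replicate 1, at 281 CPM, was the only library in which miR-96-5p exceeded miR-182-5p.

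The other 3p arms were scarcely detectable at this depth. miR-182-3p had 17 and 8 counts in control replicates 1 and 2, 34 counts in BrdU replicate 3 and 0 in the remaining libraries, all 3 L-Tyr libraries included. miR-96-3p had 5 counts in BrdU replicate 2 and 0 elsewhere. Both missed the filter on low counts over the 9 libraries, and no fold change is given for them.

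**Figure D2:**
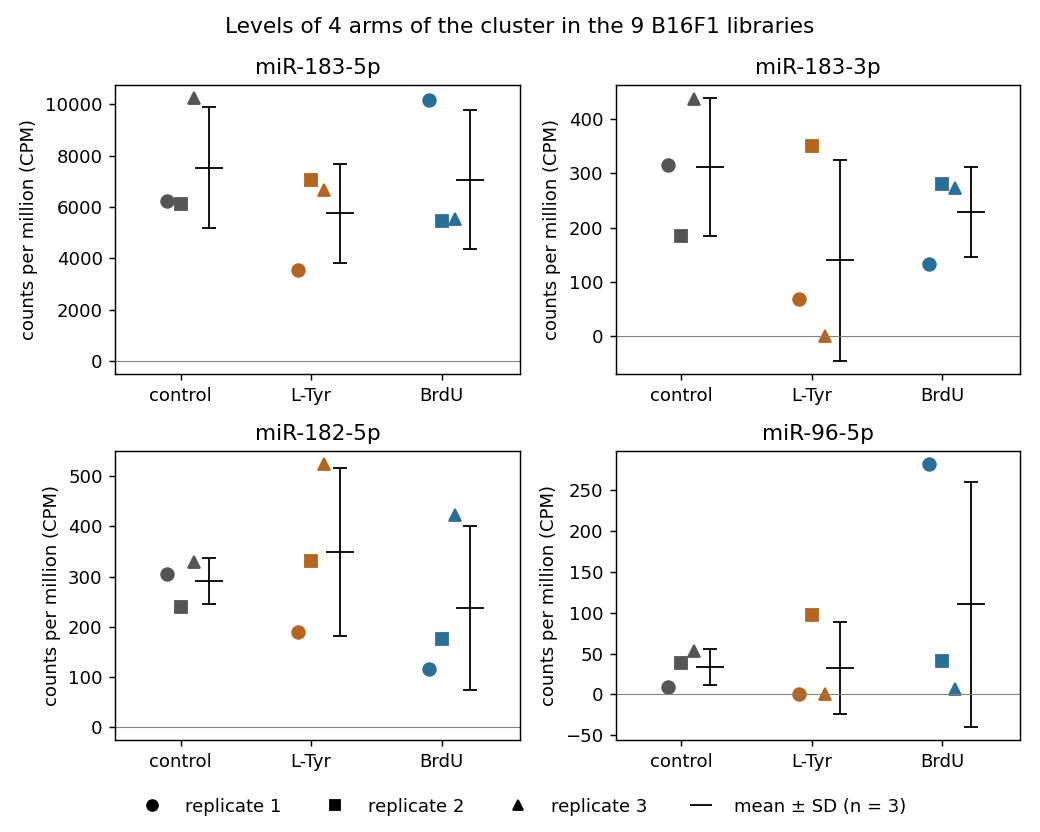
Levels of miR-183-5p, miR-183-3p, miR-182-5p and miR-96-5p in CPM (vertical axes, linear) in the 3 control, 3 L-Tyr and 3 BrdU libraries. Points are libraries, and bars show the mean ± SD (n = 3). The groups overlap in every panel, and miR-96-5p has 1 high library, BrdU replicate 1, at 281 CPM.

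The design compared each exposure with control cells and the exposures with each other, and the first 2 comparisons share the control libraries. With edgeR's quasi-likelihood test on counts summed by hairpin and arm, 0 of 3 tested arms of the cluster were called for L-Tyr against control, 0 of 4 for BrdU against control and 0 of 3 for BrdU against L-Tyr at an adjusted p under 0.05. In these comparisons 2.65%, 3.11% and 2.34% of all arms tested were called. At an unadjusted p under 0.05 the count of cluster arms was also 0 in each comparison, where 14.8%, 19.0% and 12.5% of all arms tested passed, and DESeq2 also called 0 cluster arms. No arm of the cluster had groups whose CPM did not overlap, whereas 18.9%, 28.0% and 19.5% of all arms tested in these comparisons did.

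In cells exposed to L-Tyr, concerning control, the log2 fold change of miR-183-5p was -0.48 (SE 0.323, 95% interval -1.21 to 0.26, edgeR adjusted p = 0.583), beside a median of -0.13 over all 264 arms tested. That of miR-183-3p was -1.30 (interval -4.38 to 1.78, adjusted p = 0.783), and it was -3.33 without L-Tyr replicate 2 and -0.64 without L-Tyr replicate 3. That of miR-182-5p was 0.19 (interval -1.32 to 1.69, adjusted p = 0.964). miR-96-5p missed the filter here. The intervals leave room for a change of miR-182-5p or miR-183-3p of more than 1 log2 unit in either direction, and for miR-183-5p they do so downward only.

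In cells exposed to BrdU the log2 fold change of miR-183-5p concerning control was -0.13 (SE 0.346, interval -0.94 to 0.67, edgeR adjusted p = 0.882), with a median of -0.09 over all 289 arms. It was 0.09 without BrdU replicate 3. miR-183-3p had -0.51 (adjusted p = 0.725) and -0.56 without that library, and miR-182-5p had -0.37 (adjusted p = 0.838) and -0.97 without it. miR-96-5p had the largest value of the 4, 1.68 (SE 1.45, interval -1.70 to 5.07, adjusted p = 0.607). Of its 69 BrdU counts 49 came from replicate 1, and the value was -0.40 without this library and 2.28 without BrdU replicate 3.

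Between the exposures, BrdU against L-Tyr, miR-183-5p had a log2 fold change of 0.36 (SE 0.367, interval -0.491 to 1.204, edgeR adjusted p = 0.877), miR-183-3p had 0.82 (adjusted p = 0.984) and miR-182-5p had -0.50 (adjusted p = 0.984). Without BrdU replicate 3 these were 0.46, 0.60 and -1.26, and that of miR-183-3p ran from 0.18 without L-Tyr replicate 3 to 2.76 without L-Tyr replicate 2. In the fit of all 6 libraries both tested arms of mir-211 were called lower in BrdU cells, with log2 fold changes of -1.64 for miR-211-5p (adjusted p = 0.00704) and -2.70 for miR-211-3p (adjusted p = 0.0118). Neither arm was called against control. There the edgeR adjusted p of miR-211-5p and miR-211-3p was 0.143 and 0.181 for L-Tyr, and 0.0784 and 0.0578 for BrdU.

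**Figure D3:**
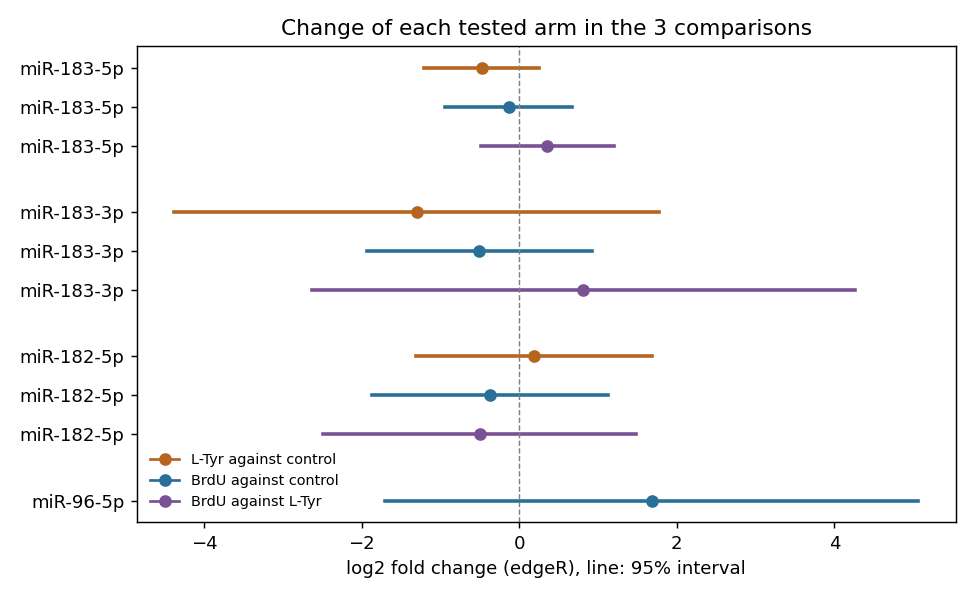
Log2 fold change of each tested arm of the cluster (horizontal axis) in L-Tyr against control, BrdU against control and BrdU against L-Tyr. Points are edgeR estimates and lines their 95% intervals. Every line crosses 0, and that of miR-183-5p in L-Tyr against control runs from -1.21 to 0.26.

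The shares of the cluster's counts, which do not depend on library size, were compared by the same exact permutation test, which with 3 replicates a group cannot reach 0.05, so they are given as values. miR-182-5p made up 3.67 ± 0.724% of the cluster in control cells, 5.50 ± 1.60% in L-Tyr cells and 3.56 ± 2.85% in BrdU cells (n = 3 each; exact permutation p = 0.2 for L-Tyr against control and 0.9 for BrdU against control). miR-96-5p made up 0.396 ± 0.231%, 0.414 ± 0.717% and 1.14 ± 1.32%. Over the 23 shares tested, of members, arms and starts, the adjusted p was 1, which this design leaves little room to change.

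What set the tags of the cluster apart from the mature sequences was their position. The longest tag in the whole table had 20 nt, whereas the mature 5p arms have 22 (miR-183), 23 (miR-96) and 25 bases (miR-182), so no tag could hold a whole 5p arm. Of the 47 member tags, 39 occurred without a mismatch in the RefSeq hairpin, and the other 8 held 172 counts (1.00% of the cluster). The most abundant matching tag of miR-183-5p at each start is given in the order of the starts, because these tags show how much of the seed each start leaves out. Capitals mark the bases that remain of the seed.
start at base 1: tATGGCACtggtagaattca
start at base 2: ATGGCACtggtagaattcac
start at base 3: TGGCACtggtagaattcact
start at base 4: GGCACtggtagaattcactg
start at base 5: GCACtggtagaattcactg
start at base 6: CACtggtagaattcactg

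These 6 tags had 667, 1633, 3625, 2612, 1462 and 753 counts over the 9 libraries. Summed over tag lengths, the most common start of miR-183-5p lay 3 bases after the mature 5′ end, with 4825 of 15586 matching counts (31.0%), and the start 2 bases after it followed with 3930 (25.2%). Only 4.67% of the counts began at the first base, and 15.96% kept the whole seed. The remaining 84.0% began 2 or more bases in and so lacked at least 1 seed base.

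Starts 2 to 4 bases in took most of the counts in each of the 9 libraries. The share that began at the first base ran from 1.15% (L-Tyr replicate 1) to 7.12% (BrdU replicate 3), and the share that began 3 bases in from 24.8% (control replicate 2) to 38.4% (L-Tyr replicate 3). Over all tags of miR-183-5p, mismatched ones included, the latter share was 29.3 ± 4.06% in control cells, 33.3 ± 4.37% in L-Tyr cells and 32.2 ± 4.06% in BrdU cells (n = 3 each), with p = 0.4 and 0.5 for the exposures against control cells in exact permutation tests.

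**Figure D4:**
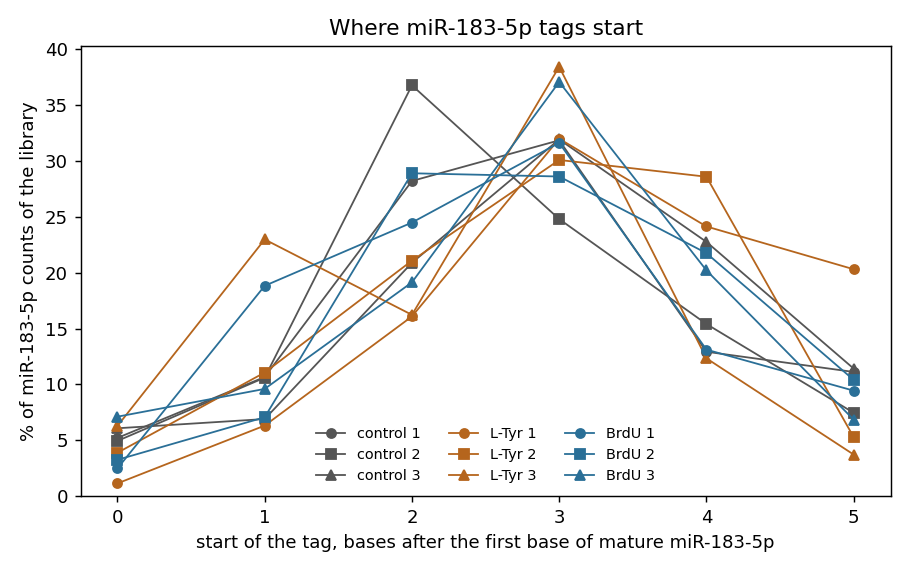
Start of the miR-183-5p tags that match the hairpin, in bases after the first base of the mature sequence (horizontal axis), as a percentage of the miR-183-5p counts of each library (vertical axis). Each line is a library, coloured by group, and the starts 2 to 4 bases in take most of the counts in all 9.

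Tags that began inside the mature sequence were frequent across the table, and more so for miR-183-5p than for most arms. Over all tags that matched a RefSeq mature arm, 30.8% of the counts began at the first base and 42.1% kept the whole seed. Of 95 arms with at least 1000 counts, the median arm had 25.4% of its counts at the first base (quartiles 10.7 and 49.1%), and 9 arms had a lower share than miR-183-5p. The whole seed was kept in 43.1% of the counts of the median arm, and 17 arms had a lower such share than miR-183-5p. At the other end, 46.7% of the miR-183-5p counts stopped at the last mature base and 31.0% ran 1 base beyond it. The cause of the missing 5′ bases was not tested.

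For miR-182-5p the tag from the first base and the tag that begins 3 bases in are shown, as they held 337 and 218 of its 675 counts.
miR-182-5p, start at base 1: tTTGGCAAtggtagaactca
miR-182-5p, start at base 4: GGCAAtggtagaactcacac

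Which of them prevailed changed from library to library. Tags from the first base made up 11 of 65, 49 of 107 and 1 of 75 counts in control cells, 0 of 28, 84 of 85 and 93 of 102 in L-Tyr cells, and 20 of 20, 1 of 77 and 78 of 116 in BrdU cells. The share ran from 1.33 to 45.8% in control cells, from 0 to 98.8% in L-Tyr cells and from 1.30 to 100% in BrdU cells. The group means of 21.4 ± 22.6%, 63.3 ± 55.0% and 56.2 ± 50.3% (n = 3 each) gave p = 0.4 for each exposure against control in exact permutation tests.

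**Figure D5:**
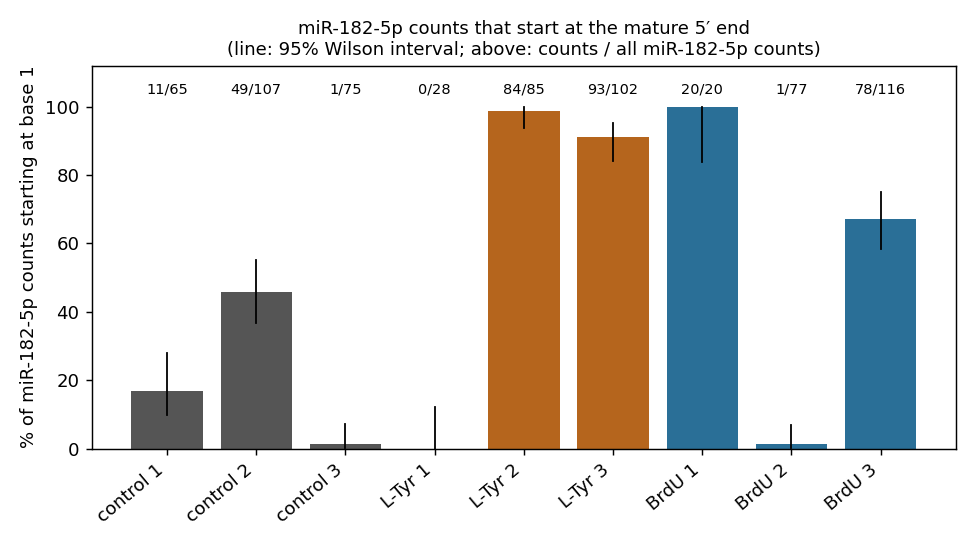
Percentage of miR-182-5p counts that begin at the first base of the mature sequence (vertical axis) in each of the 9 libraries (bars, coloured by group), with 95% Wilson intervals as lines and the counts printed above. L-Tyr libraries range from 0 to 98.8% and BrdU libraries from 1.30 to 100%.

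miR-96-5p had 3 tags and none of them reached the first 3 bases of the mature sequence. Its most abundant tag, with 80 of 125 counts, lacks the same part of the seed as the tags of miR-183-5p that begin at base 4.
miR-96-5p, start at base 4: GGCACtagcacatttttgct

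The 3p arm of mir-183 kept its seed more often, with 61.0% of 549 matching counts, and its most abundant tag (320 counts) began at base 2. Among the 47 tags 9 had counts in all 9 libraries and 10 in 1 library only. A tag of miR-183-3p of 19 nt, chosen after its values were seen, had 43 counts in control replicate 3 and 0 in all others, and its 18 nt form had 46 counts in L-Tyr replicate 2 and at most 7 elsewhere.

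Tested tag by tag, as in the deposited table, 15 member tags passed the filter for L-Tyr against control, 17 for BrdU against control and 14 for BrdU against L-Tyr, and edgeR called 0 of them in each. Of all tags tested 0.0796%, 0.0% and 0.162% were called, and DESeq2 called 0 member tags in each comparison. At an unadjusted p under 0.05 there were 1, 0 and 0 member tags, where 9.63%, 10.5% and 7.29% of all tags tested passed. The member tag was the most abundant of miR-183-5p (start at base 3), in L-Tyr against control. It had 354, 860 and 478 counts in control cells and 84, 339 and 189 in L-Tyr cells. Its log2 fold change was -1.08 (SE 0.353), with an unadjusted p of 0.0115 and an adjusted p of 0.321 in edgeR. The most abundant tag of miR-182-5p had a log2 value of 2.16 in L-Tyr cells concerning control (SE 1.58, edgeR adjusted p = 0.827). In BrdU cells, again concerning control, the value was 1.19 (edgeR adjusted p = 0.894).

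Across the 9 libraries, log2 CPM of miR-183-5p and miR-96-5p had a Pearson r of 0.71 (permutation p = 0.0305, adjusted over 3 pairs 0.0915) and a Spearman rho of 0.63 (permutation p = 0.0781, adjusted 0.234). The r was 0.69 without the 2 libraries farthest from the median and 0.70 on deviations from the group means, and 2 of the libraries had no miR-96-5p count. For miR-183-5p and miR-182-5p r was -0.04 (permutation p = 0.929, rho 0.20, permutation p = 0.613, r without 2 libraries -0.52), and for miR-182-5p and miR-96-5p it was -0.56 (permutation p = 0.117, rho -0.40, permutation p = 0.282, r without 2 libraries -0.10). None of the 3 pairs passed the adjusted threshold.

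Among 195 other arms of at least 100 CPM, the pattern of miR-184-3p over the 9 libraries was the most like that of miR-183-5p (r = 0.93), followed by miR-130b-3p (0.86) and miR-125a-3p (0.85). miR-184-3p had 1176, 1456 and 2280 CPM in control cells, 563, 1750 and 1769 in L-Tyr cells, and 1849, 1175 and 1200 in BrdU cells. Like miR-183-5p it was lowest in L-Tyr replicate 1. Without BrdU replicate 3 miR-184-3p stayed first. Of these arms, 10 had a higher r with miR-183-5p than miR-96-5p had, 53 than miR-183-3p and 81 than miR-182-5p. These are descriptions, since all arms of a library share its depth and scaling.

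Epithelial miRNAs that are often expressed beside the cluster had counts in a minority of the libraries for most arms. Of the miR-200 family, miR-141, miR-429 and miR-205, 5 of 6 hairpins were analysed, and 0 of their 6 arms with counts passed the filter in any comparison. Their summed level was 2.24 to 109 CPM in control cells and 0 to 556 CPM in L-Tyr cells, the highest in replicate 1 with miR-141-3p at 285 CPM and miR-200a-3p at 224 CPM, and in BrdU cells it reached 3265 CPM in replicate 3, where miR-200c-3p had 1507 CPM, miR-141-3p 1251 CPM and miR-205-5p 507 CPM.

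Among miRNAs of neural and sensory cells, 6 of 10 hairpins were analysed, those of miR-9, miR-7a and miR-204. miR-9-5p, which acts in neural progenitors, was at 476.5 to 1555 CPM for each of its 3 hairpins, whose tags share sequence and cannot be told apart. edgeR called 0 of 9 tested arms of this list for L-Tyr against control (median log2 fold change -0.36), 0 of 8 for BrdU against control (-0.80) and 0 of 8 for BrdU against L-Tyr (-0.39). The medians over all arms in these comparisons were -0.13, -0.09 and 0.09, and 2.65%, 3.11% and 2.34% of all arms tested were called. Most tested arms of the list belong to the 3 miR-9 hairpins, so its medians mainly reflect miR-9. For BrdU against control miR-7a-1-5p had 0.12 and miR-7a-2-5p -0.13. Of 4 hairpins with related seeds or shared targets mir-27a and mir-27b were analysed, and 0 of their 3 tested arms were called in each comparison, beside the same shares of all arms. miR-27b-3p ran from 17580 to 25990 CPM outside BrdU replicate 3, where it had 39890 CPM. miR-27a-3p ran from 8468 to 24250 CPM outside that library and had 82990 CPM in it. miR-1271, which carries the seed of miR-96-5p, was not analysed here.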

How the data were processed

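Small RNA of 9 libraries was sequenced by the authors, who compared the reads with the mouse genome mm9 and miRBase and deposited whole-number counts per sequence tag and hairpin (the deposited counts are raw). Their normalized values and the columns of their own comparisons (fold changes, standard errors, p-values) were not used. The submitters' processing notes also name FastQC, MultiQC and DESeq2.

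Counts were summed by hairpin and arm (boundary at start number 35) and fitted, over the whole table, in R 4.3.3 with edgeR 4.0.16 (TMM, filterByExpr, quasi-likelihood F test, 6 libraries a comparison, Benjamini-Hochberg adjustment, calls under 0.05). Single tags were fitted likewise. DESeq2 1.42.0 was an alternative, as were other scalings, filters, arm boundaries, tag choices, a fit of all 9 libraries and leaving out each library. The edgeR step was tested on simulated data, which were less variable than the arms fitted for L-Tyr against control and held no outlying library. Levels in CPM are counts per total count divided by the TMM factor of the library, whereas the limits for a count of 0 are without that factor. Correlations used TMM-scaled log2 CPM (prior count 2). Shares were compared by exact two-sided permutation tests in Python 3.11.15 with scipy 1.17.1. Tag positions were read against RefSeq hairpins, of which 323 of 391 matched by name, and genome positions against NCBIM37.

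The members and lists were chosen with earlier results of these data known. Named were every member arm, the most abundant tag of each, the 3 arms of at least 100 CPM most correlated with the leading member arm, and up to 4 examples of each list. The tags printed at other starts, and mir-143, miR-211 and miR-1271, were added for description.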

Additional observations from a re-analysis of the deposited data

How the results depend on the processing

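No arm or tag of the cluster was called under any of the alternatives run, 18 for each comparison of arms and 15 for each of tags. The shares cannot reach p under 0.05 with 3 libraries a group, so their tests say nothing about stability. Libraries of the same replicate number deviated little together (correlations of same-numbered deviations -0.11 to 0.06 over 304 arms). Whether their cultures shared a batch was not tested. With the replicate block the log2 fold change of miR-183-5p was -0.50 for L-Tyr against control (SE 0.236, edgeR unadjusted p = 0.0719, adjusted p = 0.387). For BrdU against control it was -0.16. With the block 1, 1 and 0 arms of the whole table were called in L-Tyr against control, BrdU against control and BrdU against L-Tyr, in place of 7, 9 and 6. DESeq2 called 19, 29 and 16 arms and the fit without a filter 14, 52 and 27. For BrdU against control 3 were called with total-count scaling and 3 with tags of 1 hairpin only, and for BrdU against L-Tyr 3 in the fit of all 9 libraries. Leaving out a library gave 0 to 10, 1 to 15 and 0 to 5. Of single tags 1, 0 and 2 were called, against 48, 37 and 41 by DESeq2, 11, 85 and 47 without a filter, and 1 to 2, 0 to 14 and 0 to 3 without 1 library. The block gave 0, 1 and 3 tags, the fit of all 9 libraries 1, 3 and 1, total-count scaling 6, 0 and 3, a mean count of at least 50 gave 8, 0 and 2, and leaving out mir-3963 or mir-143 gave 0 or 1 in the first comparison and 0 or 1 in the second. Total-count scaling moved the median of all arms from -0.13 to 0.07 for L-Tyr against control and from 0.09 to -0.12 for BrdU against L-Tyr, and no direction of a member arm turned with it.

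Directions turned where 1 library was left out, and the cause was not tested. The log2 fold change of miR-182-5p then ran from -0.22 to 0.49 for L-Tyr against control (lowest without L-Tyr replicate 3) and from -0.97 to 0.059 for BrdU against control (highest without BrdU replicate 1). For BrdU against control that of miR-183-5p ran from -0.42 to 0.18 and that of miR-96-5p from -0.40 to 2.28. Differences in shares, in percentage points, also turned. For L-Tyr against control they ran from -0.665 to 1.27 for miR-183-5p and from -0.396 to 0.225 for miR-96-5p of the cluster. For BrdU against control they ran from -2.46 to 1.60 for miR-183-5p and from -1.67 to 1.13 for miR-182-5p of the cluster, from -0.944 to 0.851 for the 3p share of mir-183, from -9.23 to 4.08 for that of mir-182 (5.24 with exactly matching tags only), and from -13.6 to 18.6 for the common start of miR-96-5p. For BrdU against L-Tyr they ran from -2.77 to 1.29 for miR-183-5p and from -0.0135 to 1.24 for miR-96-5p of the cluster, and from -3.34 to 1.28 and from -38.8 to 20.3 for the common starts of miR-183-5p and miR-182-5p. With 3 libraries a group and at most 49 counts of miR-96-5p in any library, the depth limits miR-96-5p and both low 3p arms most.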
